A study of Mus musculus with 10 samples.

Results

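Macrophages from pancreatic tumours of control mice were compared with macrophages of the healthy pancreas, gene by gene. The comparison takes 7 of the 10 libraries in the series, 4 of resident macrophages and 3 of control tumour-associated macrophages (TAM). It covers 11127 of the 12535 genes in the table, those with an FPKM of at least 1 in 3 or more of the 10 libraries. FPKM, fragments per kilobase of gene scaled to the reads of the library, is a level per gene length, so levels of different genes are compared on that scale below. Resident macrophages came from healthy C57/BL6 WT mice without a tumour (n = 4 libraries). Control TAM came from C57/BL6 Ahr fl/fl mice, which carry the conditional allele of the aryl hydrocarbon receptor gene and no label for a Cre driver (n = 3 libraries). Their tumours were grown for 14 days in the pancreas from MT4, 1 organoid line of the KPC model of pancreatic ductal adenocarcinoma. The remaining group, TAM of Ahr fl/fl mice labelled Lys M (n = 3 libraries), enters only the gene filter and the estimate of the spread. With the filter over the 7 libraries compared, 10942 genes remain. Both groups were sorted as CD45+CD11b+F4/80+ cells after tissue digestion. The tumour and the Ahr fl/fl genotype go together in the design, so their shares in a difference cannot be told apart. The labels name 2 kits for RNA extraction without saying which library had which, and give no age or sex.

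Macrophages of the healthy pancreas sit between the acini and in the islets, and many of them divide in place rather than being replaced from blood. They clear dead cells, take up iron and hyaluronan, and present antigen. A growing tumour draws in monocytes, which turn into macrophages in tissue that is short of oxygen and rich in cytokines. Macrophages of the peritoneal cavity, which surrounds the pancreas, are a further population, marked by the transcription factor GATA6.

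The libraries were first checked against their labels. Ptprc, which encodes CD45, was at 64.5, 68.6, 72.2 and 70.6 FPKM in the resident libraries and at 104, 98.9 and 105 in control TAM. Itgam, which encodes CD11b, was at 30.5, 30.8, 31.4 and 32.8 FPKM in the resident libraries and at 73.7, 72.1 and 81.9 in control TAM. Adgre1, which encodes F4/80, was at 685, 717, 715 and 707 FPKM in the resident libraries and at 593, 589 and 588 in control TAM. All 3 genes of the sort were thus present in every library, with Ptprc and Itgam higher and Adgre1 lower in control TAM, each without overlap. The fall of Adgre1 did not pass with libraries rescaled to a common total (adjusted p = 0.138) or with quantile normalization (adjusted p = 0.562). All 12 macrophage markers were detected in all libraries, and 6 rose, 5 fell and 1 did not pass. Depth, estimated from the step size of low FPKM values, was least in control TAM replicate 2 (10313845 reads) and greatest in resident replicate 4 (16735394). Libraries of a group lay close together, with a median coefficient of variation of 3.27% in resident macrophages (578 genes of 100 to 1000 FPKM) and of 2.41% in control TAM (612 such genes). The series text counts mice, but no label ties a library to separate animals, so the p-values measure only the spread between these libraries, which may be technical. Ddx3y, a gene of the Y chromosome, was at 0.0312, 0.0602, 0 and 0.0145 FPKM in the resident libraries and at 0.591, 0.58 and 0.796 in control TAM, and its low level kept it out of the test. It was higher in every control TAM library. Whether these few reads came from macrophages or from other cells in the libraries was not tested. As the labels give no sex, a difference in sex and the groups cannot be told apart.

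RNA of other cell types differed between the groups. Of 29 acinar enzyme genes listed, 27 were tested, and all 27 fell. Their summed level was 35569 to 37833 FPKM in the resident libraries and 119 to 127 in control TAM. All 8 tested B and plasma cell genes fell as well (summed 1368 to 1392 against 87.7 to 96.5 FPKM), and Mzb1 and Iglc2 were listed at 0 in every control TAM library. All 14 tested epithelial and ductal genes rose, from a sum of 17.8 to 19.4 FPKM to 1358 to 1384. Most of that sum was Spp1, osteopontin (5.21 to 1056 FPKM), which macrophages also make. The keratin gene Krt19 alone went from 1.76 ± 0.401 to 82.2 ± 3.75 FPKM. Of 9 tested fibroblast genes, 7 rose and 1 fell (41.0 to 45.3 against 168 to 172 FPKM), and 4 of 5 islet genes rose (4.16 to 5.47 against 88.5 to 102 FPKM). Of 9 tested dendritic cell genes, 6 fell and none rose (205 to 216 against 40.9 to 46.3 FPKM). Of 15 tested T and NK cell genes, 12 rose and 2 fell, while their summed level was low in both groups (35.0 to 37.5 against 28.3 to 32.7 FPKM). All these sums cover the listed genes found in the table, tested or not. No gene of the erythroid list was among the 12535 genes. The part of these transcripts in the differences below was not tested. In sorted bulk samples, fewer cells of a type and less RNA per cell cannot be told apart.

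**Figure D1:**
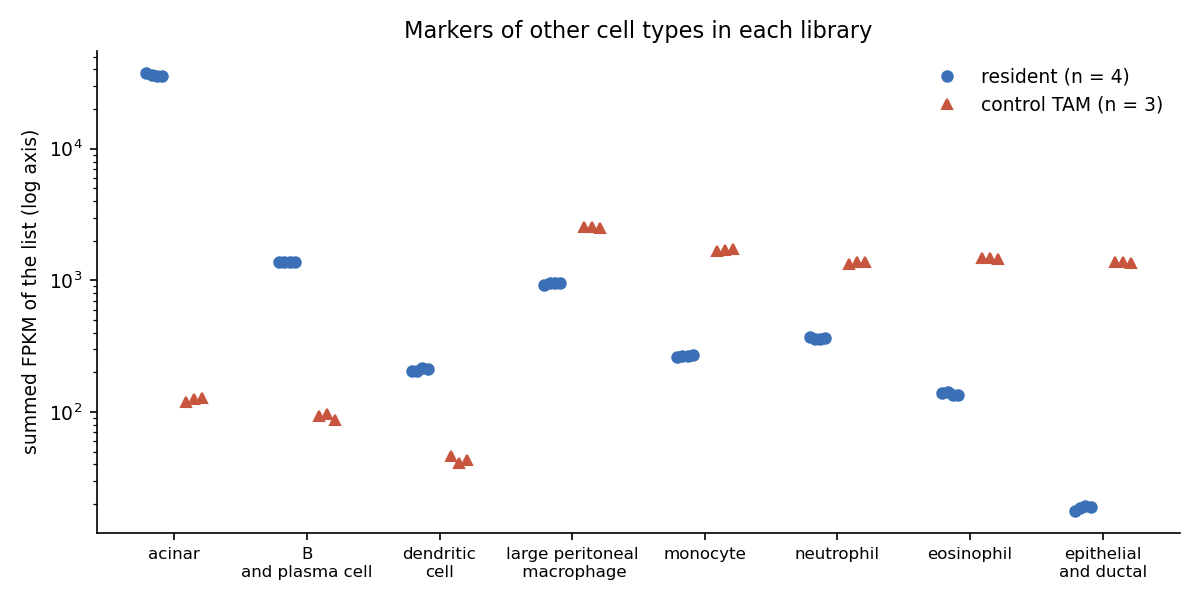
Summed FPKM of the members of 8 marker lists (log axis) in each of the 4 resident (circles) and 3 control TAM (triangles) libraries. Acinar and B cell sums are lower, and monocyte, eosinophil, neutrophil and epithelial sums higher, in all 3 control TAM libraries than in any resident library.

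Most genes differed. Of the 11127 genes, 8577 (77.1%) passed an adjusted p of 0.05 in limma. Of these, 4337 (39.0% of the genes tested) were higher and 4240 (38.1%) lower in control TAM. The groups did not overlap for 8218 genes (73.9%). A size rule of at least 2-fold on the log2(FPKM + 1) scale, together with the test, kept 1110 genes higher (9.98%) and 773 lower (6.95%), and these shares are the background for the counts of gene groups below. The median log2 change over all genes tested was 0.00175. The near-even split depended on the scaling. With every library rescaled to a common total, the median of all genes moved by 0.18 and 65.9% of the calls were higher, against 50.6% as deposited. With the acinar genes left out of that total, the median moved by 0.09 and 58.8% of the calls were higher. The first principal component held 96.7% of the variance among the 7 libraries and separated the groups.

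**Figure D2:**
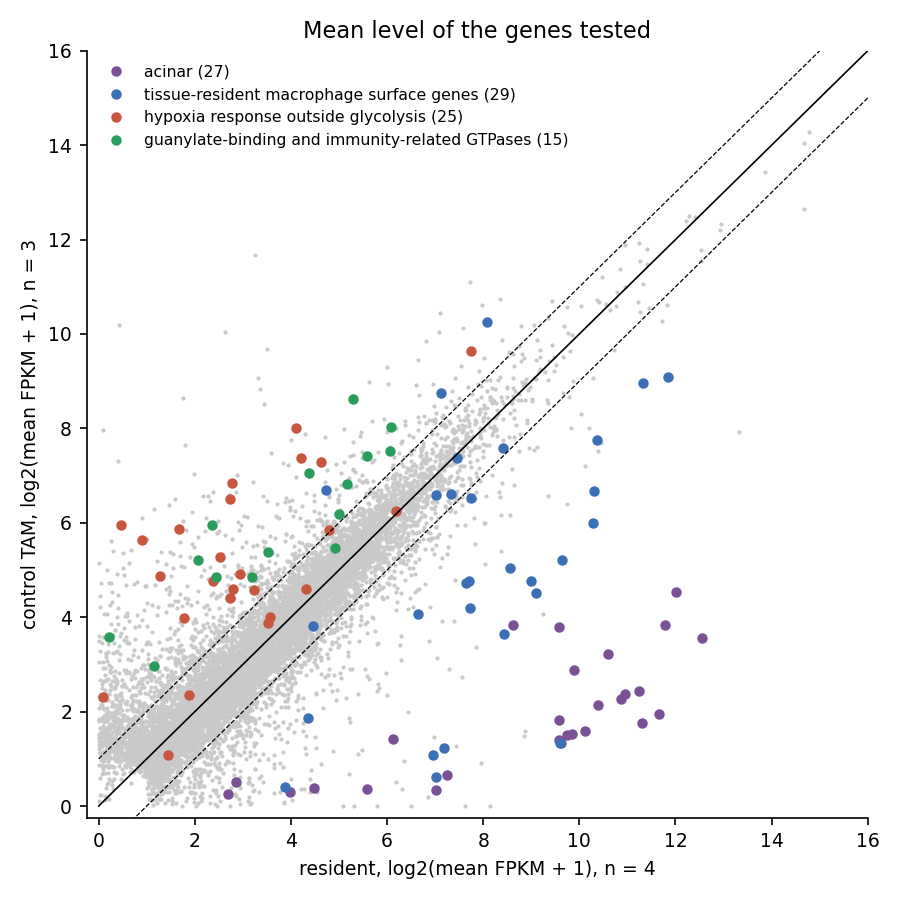
Mean level of each of the 11127 genes tested in resident macrophages (x axis) and control TAM (y axis), both as log2(mean FPKM + 1). Coloured points are members of 4 lists, and the dashed lines mark a 2-fold difference: acinar genes lie far below the diagonal, all GTPase genes and most hypoxia genes above it.

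The largest rises among genes of at least 10 FPKM in control TAM covered metabolism, cell surface and secreted proteins, once genes on the lists of non-macrophage cell types were set aside. Monocyte and peritoneal macrophage markers were not set aside, while Retnlg (neutrophil list, 0.332 to 1166 FPKM) and Spp1 (epithelial list) were. Ly6a (ENSMUSG00000075602, chromosome 15, 74994877 to 74998031, minus strand), the Sca-1 antigen, an interferon-induced surface protein, was at 11.5, 10.9, 8.4 and 10.2 FPKM in the resident libraries and at 811, 812 and 842 in control TAM (log2 change 6.20 ± 0.07, adjusted p = 9.52e-20, where ± is the standard error). G0s2, an inhibitor of the lipase that mobilises stored fat, was at 3.54, 1.8, 2.18 and 2.29 FPKM in the resident libraries and at 192, 207 and 195 in control TAM (log2 change 5.87 ± 0.11, adjusted p = 5.71e-17). Tgm2 (ENSMUSG00000037820, chromosome 2, 158116402 to 158146436, minus strand), transglutaminase 2, a crosslinking enzyme that macrophages use in taking up dead cells, was at 9.2, 8.91, 8.95 and 8.53 FPKM in the resident libraries and at 527, 554 and 533 in control TAM (log2 change 5.77 ± 0.03, adjusted p = 3.15e-23). Every control TAM library exceeded every resident library for these genes, by factors far above the spread within a group. Upp1, uridine phosphorylase, which splits uridine into uracil and a sugar phosphate, rose from 0.867 ± 0.275 to 67.4 ± 1.82 FPKM (SD; n = 4 and n = 3 in this order throughout). Cyp26a1, which breaks down retinoic acid, rose from 1.22 ± 0.341 to 77.4 ± 2.67 FPKM. Tm4sf4, a tetraspanin-like membrane protein, rose from 0.234 ± 0.0588 to 41.3 ± 2.07 FPKM. The remaining rises chosen by the same rule were Arg1, Chil3, Serpinb2, Plac8, Ly6i and Egln3. Ly6a and Ly6i belong to a family of close copies, so reads shared between them leave each value uncertain.

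With the acinar and other marker lists set aside in the same way, the largest falls were in a cluster of lectin genes and in further transcripts of other cells. The acinar genes set aside had a median log2 change of -7.76 over the 27 tested, so many of them fell further than most of the lectin genes. Cd209f (ENSMUSG00000051906, chromosome 8, 4102787 to 4105835, minus strand), a C-type lectin that binds sugars of microbes and host cells, was at 793, 761, 770.1 and 767 FPKM in the resident libraries and at 1.52, 1.41 and 1.69 in control TAM (log2 change -8.25 ± 0.04, adjusted p = 6.99e-24). Cd209g was at 133, 125, 127 and 125 FPKM in the resident libraries and at 0.50, 0.635 and 0.487 in control TAM (log2 change -6.39 ± 0.05, adjusted p = 1.70e-21). Both genes were nearly silent in control TAM, and no library of either group came near the other group. Cd209b fell from 144 ± 2.28 to 1.36 ± 0.123 FPKM and Cd209d from 123 ± 5.1 to 1.11 ± 0.162 FPKM. These genes lie side by side on chromosome 8 and resemble each other, so the split of reads among them is uncertain, though all 4 fell. The other falls by this rule were immunoglobulin segments, such as Igkv12-89 (282 FPKM in resident macrophages and listed at 0 in control TAM), and products of the exocrine pancreas and gut lining, Gp2 (245 to 0.884 FPKM), Pla2g1b, Klk1 and Tff2. These move with the B cell and acinar lists given above.

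Transcription factors of macrophages changed in both directions. Of 41 tested of 42 listed, 20 rose, 18 fell and 3 did not pass, with 8 at least 2-fold higher (19.5%, against 9.98% of all genes) and 8 at least 2-fold lower (19.5%, against 6.95%). Their median log2 change of 0.08 was near 0 and not stable, at 0.04 without control TAM replicate 2, 0.05 without control TAM replicate 1 or resident replicate 3, 0.14 without control TAM replicate 3 and 0.27 with libraries rescaled to a common total. Gata6 (ENSMUSG00000005836, chromosome 18, 11052064 to 11085635, plus strand), which keeps the identity of macrophages of the peritoneal cavity, was at 1.51, 1.36, 1.24 and 1.17 FPKM in the resident libraries and at 16.2, 15.1 and 15.7 in control TAM (log2 change 2.84 ± 0.07, adjusted p = 2.45e-15). Id1, an inhibitor of basic helix-loop-helix factors and a common target of BMP signalling, was at 1.36, 3.1, 0.713 and 1.89 FPKM in the resident libraries and at 20.4, 17.2 and 16.8 in control TAM (log2 change 2.86 ± 0.19, adjusted p = 1.16e-09). Bhlhe40, a repressor that supports macrophage proliferation and cytokine output, was at 21.7, 24, 23.7 and 24.7 FPKM in the resident libraries and at 154, 155 and 161 in control TAM (log2 change 2.68 ± 0.04, adjusted p = 7.36e-18). For all 3 the lowest control TAM library lay several times above the highest resident library. Hif1a, the oxygen-regulated factor, rose from 17.3 ± 1.21 to 68 ± 2.0 FPKM, Irf7, an amplifier of interferon output, from 35.9 ± 1.46 to 122 ± 2.39 FPKM, and Cebpb, the most abundant factor of the list, from 555 ± 45.5 to 935 ± 79.9 FPKM.

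Other factors fell. Tcf4 (ENSMUSG00000053477, chromosome 18, 69343356 to 69689079, plus strand), known as E2-2 and for driving plasmacytoid dendritic cells, was at 21.5, 19.8, 19.8 and 19.99 FPKM in the resident libraries and at 6.4, 6.57 and 6.01 in control TAM (log2 change -1.54 ± 0.06, adjusted p = 3.93e-13). Irf4, a factor of alternatively activated macrophages and of B cells, was at 6.15, 6.17, 5.1 and 5.74 FPKM in the resident libraries and at 1.4, 1.36 and 1.19 in control TAM (log2 change -1.55 ± 0.08, adjusted p = 5.72e-11). Etv1, an ETS family factor, was at 5.22, 5.74, 5.86 and 6.1 FPKM in the resident libraries and at 1.3, 1.1 and 1.52 in control TAM (log2 change -1.55 ± 0.08, adjusted p = 5.49e-11). The 2 groups were far apart for each, with every control TAM library at less than any resident library. Maf, which restrains division and helps set the program of resident macrophages, fell from 14.7 ± 0.493 to 4.57 ± 0.0549 FPKM. Spi1, which encodes PU.1, the factor that all macrophages need, was higher in control TAM by 0.22 as log2 (259 to 302 FPKM). Klf4 moved least in the list (9.08 to 9.64 FPKM, adjusted p = 0.291).

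**Figure D3:**
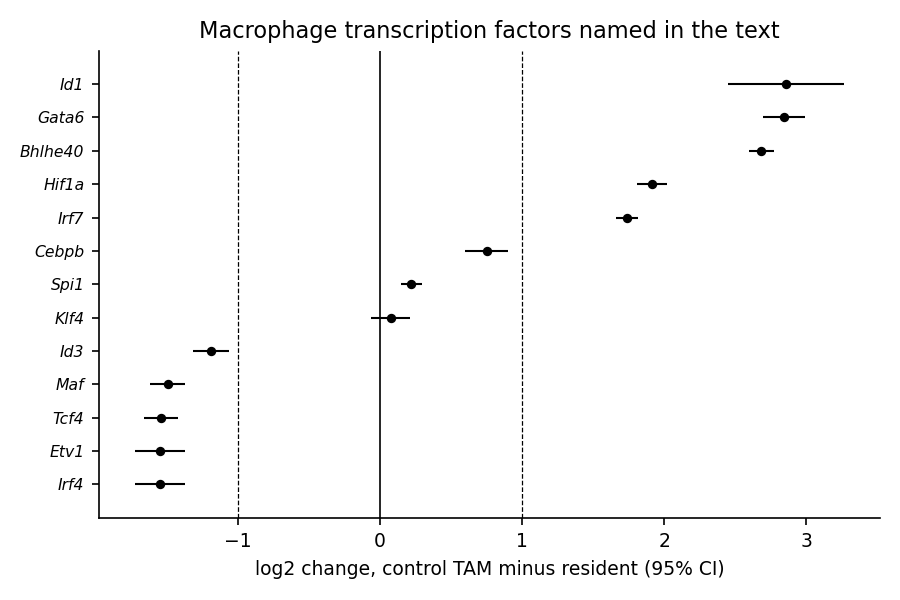
Log2 change (control TAM minus resident, on the log2(FPKM + 1) scale) of the 13 transcription factors named in the text, of 41 tested, with 95% confidence intervals from limma. Gata6, Id1 and Bhlhe40 stand on the right, Tcf4, Irf4, Etv1 and Maf on the left, and the dashed lines mark 2-fold.

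Genes that mark tissue-resident macrophages, most of them for surface proteins and some for secreted or intracellular ones, were lower almost throughout. Of 29 tested of 31 listed, 25 fell, 3 rose and 1 did not pass. At least 2-fold, 21 were lower (72.4%, against 6.95% of all genes) and the median log2 change was -2.92. Lyve1 (ENSMUSG00000030787, chromosome 7, 110850607 to 110863239, minus strand), a hyaluronan receptor, was at 492, 512, 516 and 505 FPKM in the resident libraries and at 28.1, 26.1 and 24.1 in control TAM (log2 change -4.23 ± 0.04, adjusted p = 2.97e-20). Folr2, the folate receptor of resident and of some tumour macrophages, was at 219, 214, 204 and 211 FPKM in the resident libraries and at 18.5, 16.6 and 16.8 in control TAM (log2 change -3.54 ± 0.05, adjusted p = 9.04e-19). Cbr2, a carbonyl reductase, was at 1318, 1216, 1222 and 1244 FPKM in the resident libraries and at 61.2, 62.8 and 64.3 in control TAM (log2 change -4.29 ± 0.03, adjusted p = 1.33e-21). Control TAM kept a small share of the resident level of each, and within a group the libraries lay close together. Fcna, a ficolin that binds microbial sugars, fell from 2559 ± 53.3 to 501 ± 6.58 FPKM. Sepp1, the selenium carrier selenoprotein P and the most abundant member, fell from 3684 ± 75.3 to 546 ± 19.9 FPKM. The 3 that rose were Marco, a scavenger receptor (270.3 ± 6.15 to 1221 ± 16.7 FPKM), Clec4n, the dectin-2 lectin (25.7 ± 1.08 to 102 ± 2.72 FPKM), and Cd5l, a secreted inhibitor of macrophage cell death (139 ± 3.42 to 428 ± 6.6 FPKM).

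C-type lectins as a family split. Of 22 tested of 27 listed, 14 fell and 8 rose, and 13 (59.1%) were at least 2-fold lower against 6 (27.3%) at least 2-fold higher. Clec4e (ENSMUSG00000030142, chromosome 6, 123281789 to 123289870, minus strand), the Mincle receptor for mycobacterial and dead-cell lipids, was at 6.23, 5.96, 6.85 and 6.91 FPKM in the resident libraries and at 66, 60.7 and 64.2 in control TAM (log2 change 3.11 ± 0.05, adjusted p = 2.99e-17). Mgl2, a lectin for galactose-type sugars of alternatively activated macrophages, was at 798, 797, 792 and 792 FPKM in the resident libraries and at 34.9, 38 and 35 in control TAM (log2 change -4.43 ± 0.03, adjusted p = 5.79e-22). Both stood apart between groups, in opposite directions. Clec7a, the dectin-1 receptor for fungal glucan, rose from 78.3 ± 3.62 to 213 ± 13.5 FPKM, and Clec10a, a paralog of Mgl2, fell from 208 ± 2.62 to 26.4 ± 1.81 FPKM. Some lectins of resident macrophages are on both of the last lists, so the 2 counts share members.

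Fc receptors bind antibodies. Of 8 tested, 3 rose, 3 fell and 2 did not pass, shares (37.5% each way) close to the 39.0% and 38.1% of all genes. By size, 2 were at least 2-fold higher and 2 lower (25% each way, against 9.98% and 6.95% of all genes). Fcgr4 (ENSMUSG00000059089, chromosome 1, 171018920 to 171029761, plus strand), an activating IgG receptor, was at 96.6, 97.6, 96.9 and 92.9 FPKM in the resident libraries and at 480.2, 484 and 483 in control TAM (log2 change 2.32 ± 0.03, adjusted p = 2.08e-19). Fcgr1, the high-affinity IgG receptor, was at 44.9, 45.8, 46.6 and 48.4 FPKM in the resident libraries and at 121, 119 and 117 in control TAM (log2 change 1.34 ± 0.03, adjusted p = 3.48e-15). Fcrls, an Fc receptor-like scavenger protein, was at 592, 602, 608 and 602 FPKM in the resident libraries and at 15, 16.4 and 15.6 in control TAM (log2 change -5.17 ± 0.04, adjusted p = 5.67e-22). Each of the 3 separated the groups, the first pair upward and the last downward. Fcgrt, the receptor that recycles IgG inside cells, fell from 1334 ± 28.3 to 182 ± 10.1 FPKM. Fcer1g, the signalling chain that activating receptors share, changed little, from 1751 ± 73.4 to 1899.9 ± 52.8 FPKM (log2 change 0.12).

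**Figure D4:**
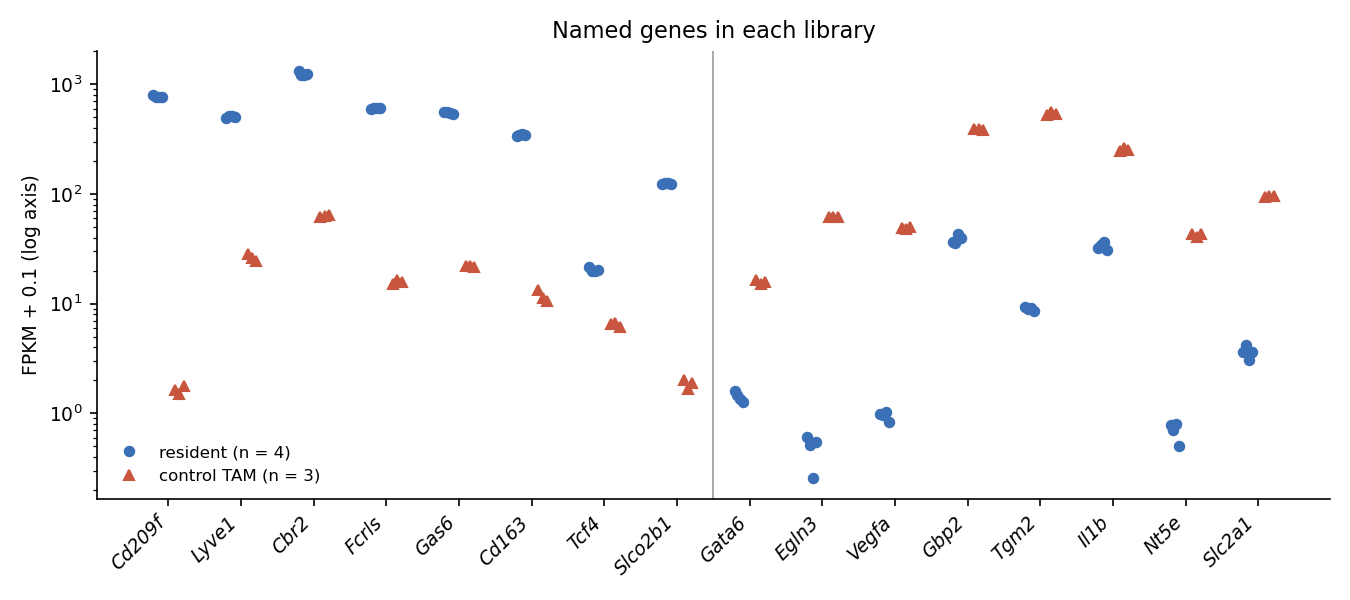
FPKM (log axis, 0.1 added to each value) of 16 named genes in each resident (circles) and control TAM (triangles) library. The 8 genes on the left are lower in all 3 control TAM libraries than in any resident library, and the 8 on the right are higher.

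Chemokines, which attract leukocytes, rose more often than they fell. Of 13 tested CC chemokines of 14 listed, 8 rose, 3 fell and 2 did not pass, with 7 (53.8%) at least 2-fold higher and 2 at least 2-fold lower. Ccl2 (ENSMUSG00000035385, chromosome 11, 82035571 to 82037453, plus strand), the main attractant of monocytes, was at 28.4, 30.9, 28.9 and 30.2 FPKM in the resident libraries and at 148, 149 and 158 in control TAM (log2 change 2.32 ± 0.04, adjusted p = 4.05e-17). Ccl5, which draws T cells and monocytes, was at 6.88, 6.49, 6.07 and 6.67 FPKM in the resident libraries and at 54.7, 57.7 and 56.7 in control TAM (log2 change 2.93 ± 0.05, adjusted p = 1.08e-17). Ccl8 was at 514, 499.9, 472 and 501 FPKM in the resident libraries and at 189, 195 and 190.3 in control TAM (log2 change -1.37 ± 0.04, adjusted p = 1.38e-14). Control TAM exceeded the resident libraries for the first pair and lay below them for Ccl8. Of 14 CXC chemokines, 8 rose and 5 fell, with 7 (50%) at least 2-fold higher and 4 (28.6%) at least 2-fold lower. Their summed level was lower in control TAM (1845.5 to 1929.1 FPKM in the resident libraries, 644.9 to 689.0 in control TAM). Cxcl9 and Cxcl10, interferon-induced ligands of CXCR3, a receptor of activated T cells, rose from 3.66 ± 0.191 to 55.9 ± 2.17 FPKM and from 2.82 ± 0.302 to 73.5 ± 1.6 FPKM. Pf4, platelet factor 4 and the most abundant CXC member, fell from 1319.6 ± 47.3 to 216 ± 10.4 FPKM, Cxcl13, which attracts B cells, from 376 ± 16 to 70.5 ± 1.75 FPKM, and Cxcl12, which retains cells in tissue, from 13.3 ± 0.498 to 2.42 ± 0.109 FPKM.

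Among receptors for attractants, 10 of 20 tested rose and 10 fell, where 39.0% of all genes rose and 38.1% fell. The 2-fold rule kept 7 (35%) higher and 4 (20%) lower, against 9.98% and 6.95% of all genes. Ackr3 (ENSMUSG00000044337, chromosome 1, 90203980 to 90216751, plus strand), a scavenger receptor for CXCL12, was at 2.11, 1.9, 2.0 and 1.69 FPKM in the resident libraries and at 31.2, 31.3 and 32.8 in control TAM (log2 change 3.49 ± 0.06, adjusted p = 1.49e-17). Ltb4r1, the high-affinity leukotriene B4 receptor, was at 19.2, 18.5, 16.8 and 16.1 FPKM in the resident libraries and at 79.9, 83.7 and 78.4 in control TAM (log2 change 2.13 ± 0.05, adjusted p = 2.60e-15). S1pr1, which guides cells out of tissue along sphingosine 1-phosphate, was at 54, 54.7, 59.1 and 54.3 FPKM in the resident libraries and at 10.7, 9.37 and 9.99 in control TAM (log2 change -2.36 ± 0.05, adjusted p = 1.02e-15). Levels of Ackr3 and its ligand gene Cxcl12 thus moved in opposite directions. Ccr2, the CCL2 receptor of monocytes, rose from 89.6 ± 4.71 to 159 ± 8.5 FPKM, while Cx3cr1, the fractalkine receptor of several resident populations, fell from 58.2 ± 2.49 to 31.8 ± 0.598 FPKM. Gpr183, which follows oxysterols, fell from 21.9 ± 0.987 to 9.37 ± 0.202 FPKM.

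Growth factors that macrophages can secrete rose more often than they fell, with 17 of 26 tested higher, 8 lower and 1 not passing. At least 2-fold, 10 (38.5%) were higher and 6 (23.1%) lower. Vegfa (ENSMUSG00000023951, chromosome 17, 46016993 to 46032369, minus strand), the inducer of new vessels, was at 0.894, 0.856, 0.935 and 0.732 FPKM in the resident libraries and at 48.4, 48.1 and 49.6 in control TAM (log2 change 4.75 ± 0.05, adjusted p = 8.59e-20). Inhba, the activin A subunit, was at 0.11, 0.33, 0.338 and 0.272 FPKM in the resident libraries and at 12.7, 12.1 and 11.9 in control TAM (log2 change 3.40 ± 0.08, adjusted p = 8.86e-16). Thbs1, thrombospondin 1, which acts on matrix and on latent TGF-beta, was at 26, 24.4, 25.6 and 24.1 FPKM in the resident libraries and at 226, 231 and 222 in control TAM (log2 change 3.13 ± 0.03, adjusted p = 8.59e-20). All control TAM libraries lay above all resident libraries for these genes. Osm, oncostatin M, a cytokine of the IL-6 family that acts on fibroblasts and epithelium, rose from 9.55 ± 0.43 to 59.2 ± 0.422 FPKM. Igf1, a trophic factor of resident macrophages, fell from 19.5 ± 0.409 to 2.66 ± 0.231 FPKM, Pdgfc, a growth factor for stromal cells, from 12.5 ± 0.85 to 1.9 ± 0.195 FPKM, and Tnfsf13b, the B cell survival factor BAFF, from 14 ± 0.68 to 1.57 ± 0.0846 FPKM.

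Interleukins and inflammasome genes rose in 17 of 22 tested cases and fell in 4, with 9 (40.9%) at least 2-fold higher and 2 at least 2-fold lower. Il1b (ENSMUSG00000027398, chromosome 2, 129364570 to 129371139, minus strand), the secreted product of inflammasome activity, was at 31.9, 34, 36.3 and 30.4 FPKM in the resident libraries and at 249, 260.4 and 251 in control TAM (log2 change 2.90 ± 0.05, adjusted p = 1.45e-17). Il1a, its cell-bound relative, was at 2.11, 1.92, 2.68 and 2.26 FPKM in the resident libraries and at 48.1, 46.4 and 47.4 in control TAM (log2 change 3.90 ± 0.07, adjusted p = 4.97e-17). Il1rn, which blocks the receptor of both, was at 13.7, 12.8, 13.3 and 13.2 FPKM in the resident libraries and at 151, 149 and 160.1 in control TAM (log2 change 3.44 ± 0.04, adjusted p = 9.52e-20). Agonists and blocker of the IL-1 receptor thus rose side by side, and Il1r2, the decoy receptor, rose from 0.425 ± 0.249 to 32.1 ± 0.625 FPKM as well. Ebi3, a subunit that IL-27 and IL-35 share, fell from 92.3 ± 6.56 to 17.6 ± 1.17 FPKM. Il10, an anti-inflammatory cytokine, was low and fell from 4.33 ± 0.415 to 1.01 ± 0.24 FPKM. Il15, which sustains NK and memory T cells, fell from 13.6 ± 0.414 to 7.51 ± 0.676 FPKM.

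Genes of the interferon response rose as groups. All 15 tested guanylate-binding protein and immunity-related GTPase genes rose, where 39.0% of all genes did. At least 2-fold, 14 of the 15 (93.3%) were higher, and the median log2 change was 1.86. These GTPases attack the vacuoles of intracellular microbes and are known targets of interferon gamma. Gbp2 (ENSMUSG00000028270, chromosome 3, 142620602 to 142638008, plus strand) was at 36.1, 35.3, 42.8 and 39.4 FPKM in the resident libraries and at 394, 395 and 386 in control TAM (log2 change 3.32 ± 0.05, adjusted p = 5.07e-18). Gbp4 was at 3.61, 4.96, 4.05 and 3.91 FPKM in the resident libraries and at 62.4, 60.2 and 61.7 in control TAM (log2 change 3.61 ± 0.07, adjusted p = 8.88e-17). Tgtp1 was at 0.203, 0.0654, 0.176 and 0.212 FPKM in the resident libraries and at 11.2, 10.6 and 11.2 in control TAM (log2 change 3.37 ± 0.07, adjusted p = 4.02e-16). None of the 3 overlapped between groups, but several genes of the family have near-identical copies, which leaves the split among them uncertain. Of 12 tested schlafen and IFI200 genes, 11 rose and none fell, with Slfn4 up from 3.56 ± 0.436 to 30.9 ± 0.552 FPKM and Slfn1 up from 14.7 ± 0.746 to 87.6 ± 3.84 FPKM. Socs1, a feedback inhibitor of interferon signalling, rose from 2.22 ± 0.461 to 38 ± 2.14 FPKM.

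The bases before the start of Gbp2 are shown because, of the members that hold the letters marked below, its rise was the largest in FPKM. A match was thus a condition of the choice. The sequence is RefSeq's on GRCm38.p6, chr3:142620413-142620662, plus strand, 5′ to 3′, and ends before the RefSeq start. The GENCODE start given above (142620602) lies inside it, just before the marked letters, so relative to that start the match is inside the gene. Capitals mark the match to AAANNGAAA, a core of the interferon-stimulated response element, searched on both strands.

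Gbp2: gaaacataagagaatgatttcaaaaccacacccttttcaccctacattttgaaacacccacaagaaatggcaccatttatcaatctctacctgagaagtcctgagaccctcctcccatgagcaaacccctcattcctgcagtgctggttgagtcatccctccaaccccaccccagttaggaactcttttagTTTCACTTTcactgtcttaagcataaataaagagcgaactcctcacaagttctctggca

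The match reads on the minus strand. That core was in 10.7% of the 27025 RefSeq promoter windows of 300 bases, which run from 250 before to 50 after the start, and in 8.27% of those of genes tested. Only 10 of the 15 GTPase genes had a window (66.7%), too few for a share over the group. A match is a description of letters and not a measured binding site.

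Genes that respond to low oxygen rose together and by large amounts. Of 25 tested hypoxia genes of 27 listed, with glycolysis kept apart, 23 rose, 1 fell and 1 did not pass. At least 2-fold, 19 (76.0%) were higher, against 9.98% of all genes, and the median log2 change was 2.20. Egln3 (ENSMUSG00000035105, chromosome 12, 54178981 to 54203860, minus strand), the prolyl hydroxylase that marks HIF-alpha for breakdown and is itself induced by it, was at 0.512, 0.416, 0.155 and 0.45 FPKM in the resident libraries and at 62, 60.9 and 61.4 in control TAM (log2 change 5.50 ± 0.08, adjusted p = 1.97e-18). Ankrd37, an ankyrin repeat protein known as a HIF1 target, was at 1.55, 1.79, 2.59 and 2.8 FPKM in the resident libraries and at 61.5, 54.7 and 57.3 in control TAM (log2 change 4.23 ± 0.11, adjusted p = 6.69e-15). Ero1l, which oxidises proteins in the endoplasmic reticulum, was at 5.16, 5.94, 6.95 and 5.47 FPKM in the resident libraries and at 118, 111 and 114 in control TAM (log2 change 4.07 ± 0.07, adjusted p = 1.70e-17). These were low or near 0 in resident macrophages and many times higher in all control TAM libraries. Bnip3, which tags mitochondria for removal, rose from 4.75 ± 0.195 to 37.5 ± 2.29 FPKM, and Adm, the vasodilator adrenomedullin, from 1.43 ± 0.359 to 28.4 ± 1.88 FPKM. Hif1a itself rose less, by 1.91 as log2.

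The upstream bases of these 3 genes are shown because they had the largest rises among hypoxia genes that hold the motif. The sequences are RefSeq's on GRCm38.p6, 5′ to 3′ on the strand of the gene, and capitals mark matches to ACGTG, the core of the hypoxia response element, on either strand. Egln3 is at chr12:54203875-54204124, Ankrd37 at chr8:45999851-46000100 and Ero1l at chr14:45318573-45318822, all on the minus strand. These windows too are placed by the RefSeq start. By the GENCODE gene bounds, that of Ankrd37 lies within the gene and that of Ero1l partly so.

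Egln3: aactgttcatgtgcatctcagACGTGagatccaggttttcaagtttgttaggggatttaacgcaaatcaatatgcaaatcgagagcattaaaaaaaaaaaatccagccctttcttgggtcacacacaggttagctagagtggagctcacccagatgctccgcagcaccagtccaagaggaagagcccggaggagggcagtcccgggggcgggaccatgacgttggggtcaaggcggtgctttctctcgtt

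Ankrd37: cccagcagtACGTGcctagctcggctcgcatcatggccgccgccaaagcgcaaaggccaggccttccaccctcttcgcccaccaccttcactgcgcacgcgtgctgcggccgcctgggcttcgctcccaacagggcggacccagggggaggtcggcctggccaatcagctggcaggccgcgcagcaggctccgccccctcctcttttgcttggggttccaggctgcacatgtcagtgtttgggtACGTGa

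Ero1l: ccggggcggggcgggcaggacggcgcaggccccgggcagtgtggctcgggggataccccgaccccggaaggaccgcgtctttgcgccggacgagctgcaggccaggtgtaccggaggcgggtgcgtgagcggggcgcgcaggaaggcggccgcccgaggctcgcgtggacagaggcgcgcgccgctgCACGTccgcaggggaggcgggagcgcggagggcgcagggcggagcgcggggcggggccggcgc

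Ankrd37 holds the core at 2 places in these 250 bases, and the other two genes hold 1 each. Of the 25 hypoxia genes tested, 22 had a RefSeq window, and 14 of these (63.6%) held ACGTG within 300 bases. The core was in 19.7% of all 27025 windows and in 26.5% of the 8783 windows of genes tested. Among genes at least 2-fold higher it was in 23.9%, and among those at least 2-fold lower in 23.4%. These shares describe letters in a short window, and binding was not measured.

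Glycolysis and glucose transport rose with similar size. Of 22 tested of 23 listed, 19 rose, 2 fell and 1 did not pass, and 17 (77.3%) were at least 2-fold higher, with a median log2 change of 2.24. Slc2a1 (ENSMUSG00000028645, chromosome 4, 119108711 to 119137983, plus strand), the glucose transporter GLUT1, was at 3.5, 4.05, 2.97 and 3.55 FPKM in the resident libraries and at 92.9, 94.8 and 95.4 in control TAM (log2 change 4.41 ± 0.06, adjusted p = 2.68e-18). Slc16a3, which exports lactate, was at 6.84, 5.51, 4.64 and 5.77 FPKM in the resident libraries and at 89.4, 92.9 and 89 in control TAM (log2 change 3.78 ± 0.08, adjusted p = 2.12e-16). Ldha, which makes lactate from pyruvate, was at 258, 249.6, 248 and 245 FPKM in the resident libraries and at 1579.7, 1578 and 1566 in control TAM (log2 change 2.65 ± 0.03, adjusted p = 3.37e-20). Uptake of sugar, its conversion and the export of lactate were thus each represented by genes whose groups stood far apart. Hk2, the first enzyme of the path, rose from 2.21 ± 0.181 to 14 ± 0.948 FPKM. Pfkfb4, which tunes the flow through the path, was 1 of the 2 that fell, from 47.1 ± 1.51 to 31.9 ± 0.807 FPKM. Several glycolytic genes have many processed pseudogenes, and reads lost to these could lower their values.

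Enzymes of the tricarboxylic acid cycle changed less. Of 24 tested, 15 rose, 6 fell and 3 did not pass, with 1 at least 2-fold in each direction. Acod1, which makes itaconate from a cycle intermediate in activated macrophages, was the one that rose so far, from 6.27 ± 0.368 to 100.3 ± 3.46 FPKM. Idh2, the mitochondrial isocitrate dehydrogenase that yields NADPH, was the one that fell, from 158 ± 5.83 to 75.3 ± 0.895 FPKM. Of 34 mitochondrial ribosomal protein genes, 28 rose, 1 fell and 5 did not pass, none of them by 2-fold, and their median log2 change was 0.37. Of 52 cytosolic ribosomal protein genes, 38 rose and 1 fell, with a median of 0.31. Those values are low for such genes and uncertain, since reads shared with pseudogenes can be lost. Both medians kept their sign under every scaling tried, though rescaling alone moved the median of all genes by 0.18.

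Integrins and enzymes of the matrix rose broadly. Of 15 tested integrin genes, 14 rose and 1 fell, and 7 (46.7%) were at least 2-fold higher. Itga6 (ENSMUSG00000027111, chromosome 2, 71745616 to 71858416, plus strand), a laminin receptor subunit, was at 5.66, 5.67, 6.27 and 5.86 FPKM in the resident libraries and at 50.8, 48.3 and 49.1 in control TAM (log2 change 2.88 ± 0.05, adjusted p = 1.86e-17). Itgb7, a partner in receptors for mucosal addressin and E-cadherin, was at 53, 51.5, 47.4 and 50.4 FPKM in the resident libraries and at 285, 289 and 274 in control TAM (log2 change 2.46 ± 0.04, adjusted p = 7.36e-18). Itgav, a subunit of receptors for vitronectin, rose from 2.31 ± 0.265 to 6.0 ± 0.33 FPKM. No resident library reached the level of any control TAM library for these. Of 25 tested matrix proteases and inhibitors, 20 rose and 4 fell, with 14 (56.0%) at least 2-fold higher. Timp1, an inhibitor of metalloproteinases, rose from 0.413 ± 0.184 to 40.2 ± 1.6 FPKM. Mmp9, a gelatinase, fell from 329 ± 3.73 to 41.5 ± 0.324 FPKM and Timp2 from 558 ± 11.6 to 195 ± 1.93 FPKM. Cd9, a tetraspanin that organises integrins in the membrane, rose from 48.2 ± 0.912 to 505 ± 7.19 FPKM, while the tetraspanin Cd81 fell from 902 ± 34.7 to 256 ± 9.11 FPKM.

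Genes for the uptake of dead cells and of complement were lower more often than higher by the test, but not by the 2-fold rule. Of 20 tested apoptotic cell recognition genes, 13 fell, 6 rose and 1 did not pass, with a median log2 change of -0.50. At least 2-fold, 3 were lower and 3 higher (15% each way, against 6.95% and 9.98% of all genes). Gas6 (ENSMUSG00000031451, chromosome 8, 13465374 to 13494490, minus strand), which bridges phosphatidylserine to the receptors AXL and MERTK, was at 559, 556, 544 and 541 FPKM in the resident libraries and at 22.1, 21.8 and 21.5 in control TAM (log2 change -4.59 ± 0.03, adjusted p = 1.06e-22). Stab1, a scavenger receptor that binds phosphatidylserine, was at 105, 98.3, 97 and 94.9 FPKM in the resident libraries and at 15.9, 15.9 and 15.6 in control TAM (log2 change -2.57 ± 0.04, adjusted p = 2.55e-17). Timd4, a direct phosphatidylserine receptor, was at 208, 216, 214 and 215 FPKM in the resident libraries and at 91, 87.5 and 95.2 in control TAM (log2 change -1.22 ± 0.03, adjusted p = 1.01e-14). All 3 were lower in every control TAM library. Of 19 complement genes, 13 fell and 6 rose, but at least 2-fold 5 (26.3%) were higher and 3 (15.8%) lower. C1qb and C1qc, chains of the first component, fell from 7777 ± 296 to 4733 ± 83.5 FPKM and from 5887 ± 148 to 2971 ± 65.5 FPKM, while Cfb, factor B of the alternative pathway, rose from 5.5 ± 0.436 to 24.6 ± 0.709 FPKM. The inhibitor gene Serping1 rose from 6.93 ± 0.604 to 44.1 ± 1.33 FPKM.

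Lysosomal proteases changed in both directions. Of 17 tested cathepsin and cystatin genes, 9 rose, 6 fell and 2 did not pass, where 39.0% of all genes rose and 38.1% fell. By size, 5 (29.4%) were at least 2-fold higher and 2 (11.8%) lower, against 9.98% and 6.95% of all genes. Ctsl (ENSMUSG00000021477, chromosome 13, 64359337 to 64370890, minus strand), a cysteine protease, was at 163, 159.7, 162 and 165 FPKM in the resident libraries and at 441, 445 and 439 in control TAM (log2 change 1.44 ± 0.03, adjusted p = 7.15e-17). Ctss, which trims the invariant chain of MHC class II and is the most abundant member, was at 1918, 1976, 2000.1 and 1978 FPKM in the resident libraries and at 3909, 3692 and 3801 in control TAM (log2 change 0.95 ± 0.03, adjusted p = 9.09e-15). Ctsf was at 79.6, 76.6, 74.9 and 76.6 FPKM in the resident libraries and at 11.6, 11.6 and 10.5 in control TAM (log2 change -2.67 ± 0.05, adjusted p = 2.62e-17). Ctsl and Ctss rose in every control TAM library and Ctsf fell in every one. Cst3, cystatin C, a secreted inhibitor of these proteases, fell from 3361 ± 133 to 1236 ± 16.7 FPKM. Ctsk, known from bone-resorbing cells, was low and rose from 0.636 ± 0.0594 to 8.23 ± 1.52 FPKM.

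Heme and iron genes had no common direction. Of 22 tested, 12 fell, 8 rose and 2 did not pass, and the median log2 change of -0.18 turned to 0.02 with libraries rescaled to a common total. Cd163 (ENSMUSG00000008845, chromosome 6, 124304656 to 124330527, plus strand), the scavenger receptor for haemoglobin bound to haptoglobin, was at 339.8, 348, 351 and 342 FPKM in the resident libraries and at 13.1, 11.1 and 10.5 in control TAM (log2 change -4.79 ± 0.06, adjusted p = 2.72e-19). Slc40a1, ferroportin, the iron exporter, was at 52.3, 54.1, 56.8 and 55.7 FPKM in the resident libraries and at 4.85, 4.15 and 4.26 in control TAM (log2 change -3.36 ± 0.06, adjusted p = 3.21e-17). Hp, haptoglobin, was at 11.7, 9.48, 12.1 and 10.9 FPKM in the resident libraries and at 178, 189 and 167 in control TAM (log2 change 3.90 ± 0.06, adjusted p = 1.38e-17). The receptor and the exporter were thus lower and the ligand higher in all control TAM libraries. Spic, a factor of iron-recycling macrophages, fell from 6.5 ± 0.531 to 1.16 ± 0.385 FPKM. Fth1, the ferritin heavy chain, was among the most abundant transcripts of control TAM and changed by 0.22 as log2 (4978 to 5789 FPKM).

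Antioxidant genes rose in 21 of 26 tested cases and fell in 4, with 12 (46.2%) at least 2-fold higher. Gsr (ENSMUSG00000031584, chromosome 8, 33652523 to 33698163, plus strand), which regenerates glutathione, was at 26.2, 24.5, 26.1 and 26.2 FPKM in the resident libraries and at 139.7, 136 and 140.5 in control TAM (log2 change 2.39 ± 0.04, adjusted p = 3.68e-18). Prdx6, a peroxiredoxin that repairs oxidised lipid, was at 37.3, 38.8, 40.1 and 37.2 FPKM in the resident libraries and at 215, 205 and 207 in control TAM (log2 change 2.42 ± 0.03, adjusted p = 2.18e-18). Cat, catalase, was at 113, 121, 119 and 117 FPKM in the resident libraries and at 50.8, 47.7 and 47 in control TAM (log2 change -1.26 ± 0.04, adjusted p = 6.63e-14). Catalase thus ran against the other two, with no overlap of groups. Me1, which makes NADPH from malate, rose from 0.302 ± 0.146 to 8.67 ± 0.917 FPKM. The core TGACNNNGC of the antioxidant response element was in 7 of 23 windows of this group (30.4%), in 12.5% of all windows and in 15.2% of those of genes tested, counted on both strands.

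Cholesterol synthesis genes rose as a group, and lipid handling genes moved in both directions. Of 23 tested cholesterol synthesis and uptake genes of 25 listed, 19 rose, none fell and 4 did not pass, with 9 (39.1%) at least 2-fold higher. Sqle (ENSMUSG00000022351, chromosome 15, 59315077 to 59331192, plus strand), squalene epoxidase, was at 1.64, 1.94, 1.67 and 1.88 FPKM in the resident libraries and at 11.1, 11 and 10.4 in control TAM (log2 change 2.09 ± 0.06, adjusted p = 4.20e-14). Apoe, the lipoprotein component that carries cholesterol out of macrophages, was at 27841, 26403, 25585 and 25303 FPKM in the resident libraries and at 6464, 6654 and 6243 in control TAM (log2 change -2.03 ± 0.03, adjusted p = 2.23e-17). Sqle lay higher, and Apoe lower, in each control TAM library. Pltp, a phospholipid transfer protein, fell from 1398 ± 40.7 to 206 ± 4.07 FPKM, and Cd36, a scavenger receptor for oxidised lipoprotein and fatty acids, from 376 ± 23.5 to 32 ± 1.28 FPKM. Of the 24 tested efflux and lipid handling genes, 13 rose and 8 fell (median log2 change 0.30), with Olr1, another receptor for oxidised lipoprotein, up from 0.435 ± 0.157 to 28.9 ± 0.769 FPKM and Gpnmb, a glycoprotein of lipid-laden macrophages, up from 1.32 ± 0.229 to 35.4 ± 1.07 FPKM.

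Arginine and polyamine genes rose in 16 of 21 tested cases, and 10 (47.6%) were at least 2-fold higher. Arg1 (ENSMUSG00000019987, chromosome 10, 24915221 to 24927484, minus strand), which splits arginine into ornithine and urea, was at 7.93, 8.5, 8.91 and 8.56 FPKM in the resident libraries and at 3274, 3212 and 3322 in control TAM (log2 change 8.43 ± 0.04, adjusted p = 1.76e-24). Nos2, which makes nitric oxide from the same amino acid, was at 0.0856, 0.22, 0.0986 and 0.127 FPKM in the resident libraries and at 30.9, 31.6 and 29.9 in control TAM (log2 change 4.81 ± 0.08, adjusted p = 9.92e-18). Slc7a2, an importer of arginine, was at 2.98, 2.32, 2.47 and 2.38 FPKM in the resident libraries and at 57.9, 54.6 and 56 in control TAM (log2 change 4.02 ± 0.06, adjusted p = 5.42e-18). Both consumers of arginine and the importer rose together, and Arg1 was far more abundant than Nos2 in every library of control TAM. Arg2, the mitochondrial arginase, rose from 0.156 ± 0.115 to 6.95 ± 0.936 FPKM, and Ass1, which rebuilds arginine from citrulline, from 0.263 ± 0.0353 to 6.29 ± 0.473 FPKM.

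Genes of protein folding and stress rose by small amounts. Of 23 tested unfolded protein response genes, 16 rose and 4 fell, but 1 in each direction reached 2-fold. Creld2, a chaperone helper, rose from 49.8 ± 2.26 to 105 ± 3.17 FPKM, Pdia6, a disulfide isomerase, from 246 ± 3.99 to 474 ± 11.2 FPKM, and Manf, a secreted stress protein, from 25 ± 0.864 to 48.5 ± 1.65 FPKM. Herpud1, which feeds proteins into degradation from the endoplasmic reticulum, fell from 259.5 ± 7.21 to 62.4 ± 2.66 FPKM (log2 change -2.04 ± 0.04, adjusted p = 3.83e-17). Of 25 tested integrated stress response and tRNA synthetase genes, 19 rose and 3 fell, with Wars, the tryptophan synthetase induced by interferon gamma, up from 36.7 ± 0.941 to 108 ± 1.84 FPKM. Asns, asparagine synthetase, a common target of ATF4, fell from 8.42 ± 0.953 to 5.82 ± 0.37 FPKM. The ATF4 composite element TGATGNAA was in 7 of the 20 windows of this group (35.0%), in 4.06% of all windows and in 2.29% of those of genes tested, on either strand.

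Genes of the cell cycle rose in 35 of 37 tested cases and fell in 1, and 22 (59.5%) were at least 2-fold higher. Rrm2 (ENSMUSG00000020649, chromosome 12, 24708241 to 24714146, plus strand), a subunit of the enzyme that makes DNA precursors, was at 6.06, 6.48, 6.75 and 7.46 FPKM in the resident libraries and at 26.2, 24.5 and 24.9 in control TAM (log2 change 1.77 ± 0.06, adjusted p = 2.99e-13). Ccnb2, a mitotic cyclin, was at 6.8, 7.79, 8.43 and 8.37 FPKM in the resident libraries and at 27, 25.1 and 28.1 in control TAM (log2 change 1.65 ± 0.07, adjusted p = 2.53e-12). Plk1, a mitotic kinase, was at 1.83, 2.69, 2.41 and 2.27 FPKM in the resident libraries and at 8.97, 9.12 and 8.54 in control TAM (log2 change 1.59 ± 0.10, adjusted p = 3.21e-10). All control TAM libraries lay above the resident ones, at levels that stayed low in both groups. Cenpa, a centromere histone, fell from 13.4 ± 0.637 to 10.5 ± 0.293 FPKM. The letters CCAAT, a box common in mitotic gene promoters, were in 23 of 30 windows of the group (76.7%) against 37.9% of all windows and 39.0% of those of genes tested. TTTCGCGC, an E2F site, was in 4 (13.3%) against 0.318% and 0.638%.

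Immediate early genes, which respond to stimuli within minutes and also to tissue digestion, rose in 20 of 22 tested cases and fell in 1, with 5 (22.7%) at least 2-fold higher. Ier3 was at 45.3, 45.2, 43.1 and 40.5 FPKM in the resident libraries and at 179.7, 183 and 175 in control TAM (log2 change 2.02 ± 0.04, adjusted p = 2.39e-16). Socs3, a feedback inhibitor of STAT3, was at 72.4, 68.4, 68.9 and 71.8 FPKM in the resident libraries and at 251, 266 and 252 in control TAM (log2 change 1.85 ± 0.03, adjusted p = 6.54e-17). Fos was at 312, 309, 289 and 293 FPKM in the resident libraries and at 458, 461 and 453 in control TAM (log2 change 0.60 ± 0.03, adjusted p = 3.84e-11). All 3 were higher in each control TAM library, though Fos was already high in resident macrophages. The part of digestion in these values was not tested. The AP-1 letters TGANTCA were in none of the 19 windows of this group in 7.93% of all windows and in 5.20% of those of genes tested.

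Purine and lipid mediator genes changed in both directions. Of 19 tested purinergic genes, 10 rose and 9 fell, where 39.0% of all genes rose and 38.1% fell. The 2-fold rule kept 6 (31.6%) higher and 5 (26.3%) lower, against 9.98% and 6.95% of all genes. Nt5e (ENSMUSG00000032420, chromosome 9, 88327197 to 88372092, plus strand), the ectoenzyme CD73 that makes adenosine, was at 0.683, 0.601, 0.704 and 0.40 FPKM in the resident libraries and at 42.6, 40.3 and 42.7 in control TAM (log2 change 4.75 ± 0.07, adjusted p = 3.35e-18). Slc29a1, a transporter that takes adenosine into cells, was at 150.3, 155, 151 and 149 FPKM in the resident libraries and at 40.2, 40.1 and 37.4 in control TAM (log2 change -1.92 ± 0.04, adjusted p = 6.85e-17). Adora2b, a low-affinity adenosine receptor, was at 8.68, 8.5, 8.52 and 8.33 FPKM in the resident libraries and at 38.7, 36.9 and 38 in control TAM (log2 change 2.03 ± 0.04, adjusted p = 3.02e-16). The enzyme and receptor genes rose and the transporter fell, with no overlap between groups. P2ry12, a receptor for ADP, fell from 30.8 ± 3.68 to 9.71 ± 0.476 FPKM, and P2rx7, the ATP channel that triggers inflammasomes, from 36.8 ± 1.52 to 13.4 ± 1.61 FPKM.

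In the prostaglandin and leukotriene list, 11 of 22 tested rose, 6 fell and 5 did not pass, where 39.0% of all genes rose and 38.1% fell. By the 2-fold rule, 5 (22.7%) were higher and 3 (13.6%) lower, against 9.98% and 6.95% of all genes. Ptgis (ENSMUSG00000017969, chromosome 2, 167191805 to 167240604, minus strand), prostacyclin synthase, was at 4.39, 4.95, 4.75 and 4.61 FPKM in the resident libraries and at 54.3, 57.2 and 56.1 in control TAM (log2 change 3.33 ± 0.05, adjusted p = 3.20e-18). Hpgd, which breaks prostaglandins down, was at 173, 179, 199 and 194 FPKM in the resident libraries and at 5.26, 5.69 and 5.97 in control TAM (log2 change -4.82 ± 0.06, adjusted p = 1.86e-19). Slco2b1, an organic anion transporter, was at 124, 127, 126 and 122 FPKM in the resident libraries and at 1.92, 1.58 and 1.78 in control TAM (log2 change -5.51 ± 0.05, adjusted p = 1.05e-20). Prostacyclin synthase was thus higher, and the breakdown enzyme and the transporter far lower, in all control TAM libraries. Ptgs2, the inducible cyclooxygenase COX-2, rose from 1.17 ± 0.0866 to 11.9 ± 0.46 FPKM, and Ptges, which makes prostaglandin E2 from its product, from 0.881 ± 0.123 to 8.94 ± 0.522 FPKM. Alox15, the lipoxygenase of peritoneal macrophages and eosinophils, rose from 137 ± 3.64 to 1389 ± 20.9 FPKM and was the most abundant member.

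Of 27 tested TGF-beta and BMP genes, 12 rose, 11 fell and 4 did not pass, close to the 39.0% and 38.1% of all genes. By the 2-fold rule, 6 (22.2%) were higher and 3 (11.1%) lower, against 9.98% and 6.95% of all genes. Tgfbr2 (ENSMUSG00000032440, chromosome 9, 116084293 to 116175360, minus strand), the receptor that binds TGF-beta, was at 89.4, 84.9, 88.9 and 86 FPKM in the resident libraries and at 34, 31.3 and 31 in control TAM (log2 change -1.42 ± 0.04, adjusted p = 1.90e-14). Ltbp1, which stores latent TGF-beta in matrix, was at 1.68, 1.66, 1.65 and 2.03 FPKM in the resident libraries and at 21.9, 21.8 and 21.2 in control TAM (log2 change 3.04 ± 0.06, adjusted p = 1.56e-16). Id3 was at 27, 29.8, 28.2 and 29 FPKM in the resident libraries and at 11.1, 12.5 and 12.2 in control TAM (log2 change -1.19 ± 0.06, adjusted p = 2.06e-11). Id3 fell in every control TAM library, while its relative Id1 rose, as given above, and Id2 rose from 38.1 ± 2.51 to 173 ± 12.4 FPKM. Semaphorin, plexin and neuropilin genes were lower in 10 of 14 tested cases, with 5 (35.7%) at least 2-fold lower and 2 (14.3%) higher. Nrp1, a co-receptor for semaphorins and VEGF, fell from 89.1 ± 0.807 to 28.9 ± 0.319 FPKM, while Sema4d rose from 8.78 ± 0.286 to 26.4 ± 1.07 FPKM. Clock genes fell in 10 of 13, where 38.1% of all genes fell, but 2 were at least 2-fold lower and 2 higher (15.4% each way). Their summed level was higher in control TAM (64.1 to 67.8 FPKM in the resident libraries, 122 to 133 in control TAM). Arntl, which encodes BMAL1, fell from 13.2 ± 0.377 to 6.19 ± 0.123 FPKM, while Nfil3, a repressor of the clock output, rose from 19 ± 1.29 to 97.5 ± 5.71 FPKM. The labels give no hour of collection, so the part of the time of day in the clock genes was not tested.

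Genes of presentation to T cells moved in both directions by the test. Of 12 tested MHC class II genes, 7 fell, 4 rose and 1 did not pass, and the median log2 change of -0.30 became 0.13 with quantile normalization. By size, 2 (16.7%) of these were at least 2-fold higher and 0 at least 2-fold lower, against 9.98% and 6.95% of all genes. H2-Eb1 (ENSMUSG00000060586, chromosome 17, 34305867 to 34316674, plus strand), a class II beta chain, was at 6145, 5981, 5840.4 and 5781 FPKM in the resident libraries and at 3449, 3611 and 3491 in control TAM (log2 change -0.76 ± 0.03, adjusted p = 2.82e-13). Ifi30, a lysosomal thiol reductase that prepares antigen, was at 105, 101, 94.2 and 99 FPKM in the resident libraries and at 404, 422 and 428 in control TAM (log2 change 2.05 ± 0.04, adjusted p = 8.50e-17). Cd274, which encodes the checkpoint ligand PD-L1, was at 3.51, 3.75, 4.02 and 3.47 FPKM in the resident libraries and at 68.1, 67.6 and 68.3 in control TAM (log2 change 3.88 ± 0.05, adjusted p = 4.13e-19). Control TAM lay lower for the beta chain and higher for the reductase and the ligand. Of 19 tested T cell ligand genes, 13 rose and 5 fell, with 8 (42.1%) at least 2-fold higher and 0 at least 2-fold lower. Tnfsf14, the ligand LIGHT, rose from 1.65 ± 0.447 to 16.3 ± 0.30 FPKM, while Cd86, a costimulatory ligand, fell from 101 ± 5.14 to 54.9 ± 2.16 FPKM, and Cd80 moved least (10.4 to 10.9 FPKM, adjusted p = 0.427).

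Paired activating and inhibitory receptors rose in 18 of 31 tested cases and fell in 10, with 12 (38.7%) at least 2-fold higher. Cd300lf (ENSMUSG00000047798, chromosome 11, 115116214 to 115133992, minus strand), an inhibitory receptor for lipids, was at 1.94, 2.11, 1.75 and 2.22 FPKM in the resident libraries and at 89, 90.2 and 89.1 in control TAM (log2 change 4.91 ± 0.05, adjusted p = 5.97e-20). Trem1, which amplifies inflammatory signals, was at 2.9, 3.33, 2.27 and 2.84 FPKM in the resident libraries and at 45.8, 44.9 and 47.1 in control TAM (log2 change 3.62 ± 0.07, adjusted p = 1.74e-16). Siglece, an inhibitory receptor for sialic acid, was at 94.2, 96.7, 96.4 and 94.1 FPKM in the resident libraries and at 21.8, 21.9 and 23.2 in control TAM (log2 change -2.05 ± 0.04, adjusted p = 3.07e-16). The groups stood apart for each gene. Among cytokine receptors and their feedback genes, 16 of 33 rose and 14 fell, where 39.0% of all genes rose and 38.1% fell. By the 2-fold rule, 8 (24.2%) were higher and 3 (9.1%) lower, against 9.98% and 6.95% of all genes. Csf1r, the receptor of the main macrophage growth factor, fell from 1238 ± 6.4 to 534 ± 7.65 FPKM. Lifr, a receptor chain for leukaemia inhibitory factor, fell from 27.1 ± 1.42 to 4.97 ± 0.287 FPKM. Of 26 tested pattern receptor genes, 15 rose (57.7%, against 39.0% of all genes) and 7 fell. By size, 2 were at least 2-fold higher and 2 lower (7.7% each way), near the 9.98% and 6.95% of all genes. Tlr13, a sensor of bacterial ribosomal RNA, rose from 18.7 ± 1.4 to 65.1 ± 1.71 FPKM. Tlr5, the flagellin receptor, fell from 7.88 ± 0.633 to 1.07 ± 0.228 FPKM.

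Members of 3 small gene families differed between the groups. Of 5 tested resistin-like and chitinase-like genes, 4 rose and 1 fell. Retnla (ENSMUSG00000061100, chromosome 16, 48842551 to 48844461, plus strand), a product of macrophages alternatively activated by IL-4, was at 10896, 9925, 9853 and 10388 FPKM in the resident libraries and at 235, 238 and 251 in control TAM (log2 change -5.40 ± 0.04, adjusted p = 1.54e-21). Chil3, the chitinase-like protein Ym1 of the same state and of monocytes, was at 2.24, 2.64, 1.99 and 2.55 FPKM in the resident libraries and at 400.3, 395 and 402 in control TAM (log2 change 6.90 ± 0.06, adjusted p = 1.51e-21). Retnla fell and Chil3 rose, with no overlap between the groups for either gene. Of 9 tested S100 calcium-binding genes, 7 rose, none fell and 2 did not pass, with 6 (66.7%) at least 2-fold higher. S100a11, which aids membrane repair, rose from 36.6 ± 4.99 to 171 ± 3.84 FPKM, and S100a10, the partner of annexin A2 and the most abundant member, from 268 ± 17.5 to 444 ± 5.67 FPKM. Of 9 tested MS4A genes, 4 rose and 4 fell, where 39.0% of all genes rose and 38.1% fell. The 2-fold rule kept 1 (11.1%) higher and 2 (22.2%) lower, against 9.98% and 6.95% of all genes. Ms4a4c rose from 9.67 ± 0.817 to 93.8 ± 7.28 FPKM. Ms4a7, a gene of resident macrophages in several tissues, fell from 97.5 ± 3.18 to 23 ± 1.09 FPKM.

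Markers of recruited and of peritoneal cells were higher in control TAM. All 12 monocyte markers rose, 11 of them at least 2-fold (91.7%), and their summed level went from 262 to 271 FPKM in the resident libraries to 1685 to 1719. Plac8 (ENSMUSG00000029322, chromosome 5, 100553725 to 100572245, minus strand), a protein of monocytes and neutrophils, was at 9.15, 9.95, 10.2 and 10.1 FPKM in the resident libraries and at 356, 371 and 366 in control TAM (log2 change 5.08 ± 0.04, adjusted p = 6.34e-22). F10, coagulation factor X, was at 16.1, 14, 15.4 and 15 FPKM in the resident libraries and at 213, 219.6 and 216 in control TAM (log2 change 3.75 ± 0.04, adjusted p = 7.29e-20). Ly6c2, the antigen of classical monocytes, was at 1.12, 0.895, 0.987 and 0.769 FPKM in the resident libraries and at 23.4, 23.6 and 25.4 in control TAM (log2 change 3.69 ± 0.08, adjusted p = 2.26e-16). None of these 3 overlapped between the groups, and Ly6c2 was the lowest of them in control TAM. Fn1, fibronectin, rose from 99.98 ± 1.93 to 281 ± 7.45 FPKM.

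Of 14 large peritoneal macrophage markers, 12 rose and 2 fell, with summed levels of 915 to 955 against 2492 to 2549 FPKM. Serpinb2 (ENSMUSG00000062345, chromosome 1, 107511423 to 107535478, plus strand), an inhibitor of plasminogen activators, was at 8.23, 8.97, 10.3 and 9.66 FPKM in the resident libraries and at 466, 446 and 450.02 in control TAM (log2 change 5.47 ± 0.05, adjusted p = 1.56e-20). Garnl3 was at 2.85, 2.12, 2.77 and 2.73 FPKM in the resident libraries and at 20.3, 20.7 and 19.2 in control TAM (log2 change 2.55 ± 0.07, adjusted p = 1.66e-14). Icam2, an adhesion ligand, was at 145, 147, 143 and 148 FPKM in the resident libraries and at 268, 258 and 253 in control TAM (log2 change 0.83 ± 0.03, adjusted p = 2.81e-13). These rose together with Gata6, Cyp26a1, Alox15 and Ltbp1, whose values are given above, while Timd4 and Cxcl13 of the same list fell. The labels do not name peritoneal cells as part of either group, and their share in these libraries was not tested.

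Markers of granulocytes rose too. Of 12 tested neutrophil markers, 10 rose, 1 fell and 1 did not pass, and the sum went from 360 to 370 FPKM to 1342 to 1376. Retnlg (ENSMUSG00000022651, chromosome 16, 48872621 to 48874496, plus strand), a resistin-like protein that monocytes and neutrophils make, was at 0.236, 0.304, 0.68 and 0.109 FPKM in the resident libraries and at 1149.6, 1169 and 1179 in control TAM (log2 change 9.79 ± 0.09, adjusted p = 1.63e-20) and held most of that sum. S100a9, an alarmin that fills neutrophils, was at 0, 0, 0 and 0.128 FPKM in the resident libraries and at 25.1, 28.7 and 22.3 in control TAM (log2 change 4.67 ± 0.08, adjusted p = 2.61e-17). Csf3r, the G-CSF receptor, was the one that did not pass (32.3 to 32.9 FPKM). So the sum in control TAM rested mainly on Retnlg, at levels far above those of the alarmin. In the resident libraries most of the sum was Mmp9, the marker that fell, whose values are given above. All 5 tested eosinophil markers rose, from a sum of 134 to 142 FPKM to 1442 to 1480, nearly all of it Alox15. Prg2, the major basic protein of eosinophil granules, was at 33.7, 35.2 and 34.4 FPKM in control TAM, and all 4 resident libraries list it at 0. Ccr3, the eotaxin receptor, rose from 0.315 ± 0.171 to 21.3 ± 1.39 FPKM. The part of granulocytes in these rises was not tested.

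**Figure D5:**
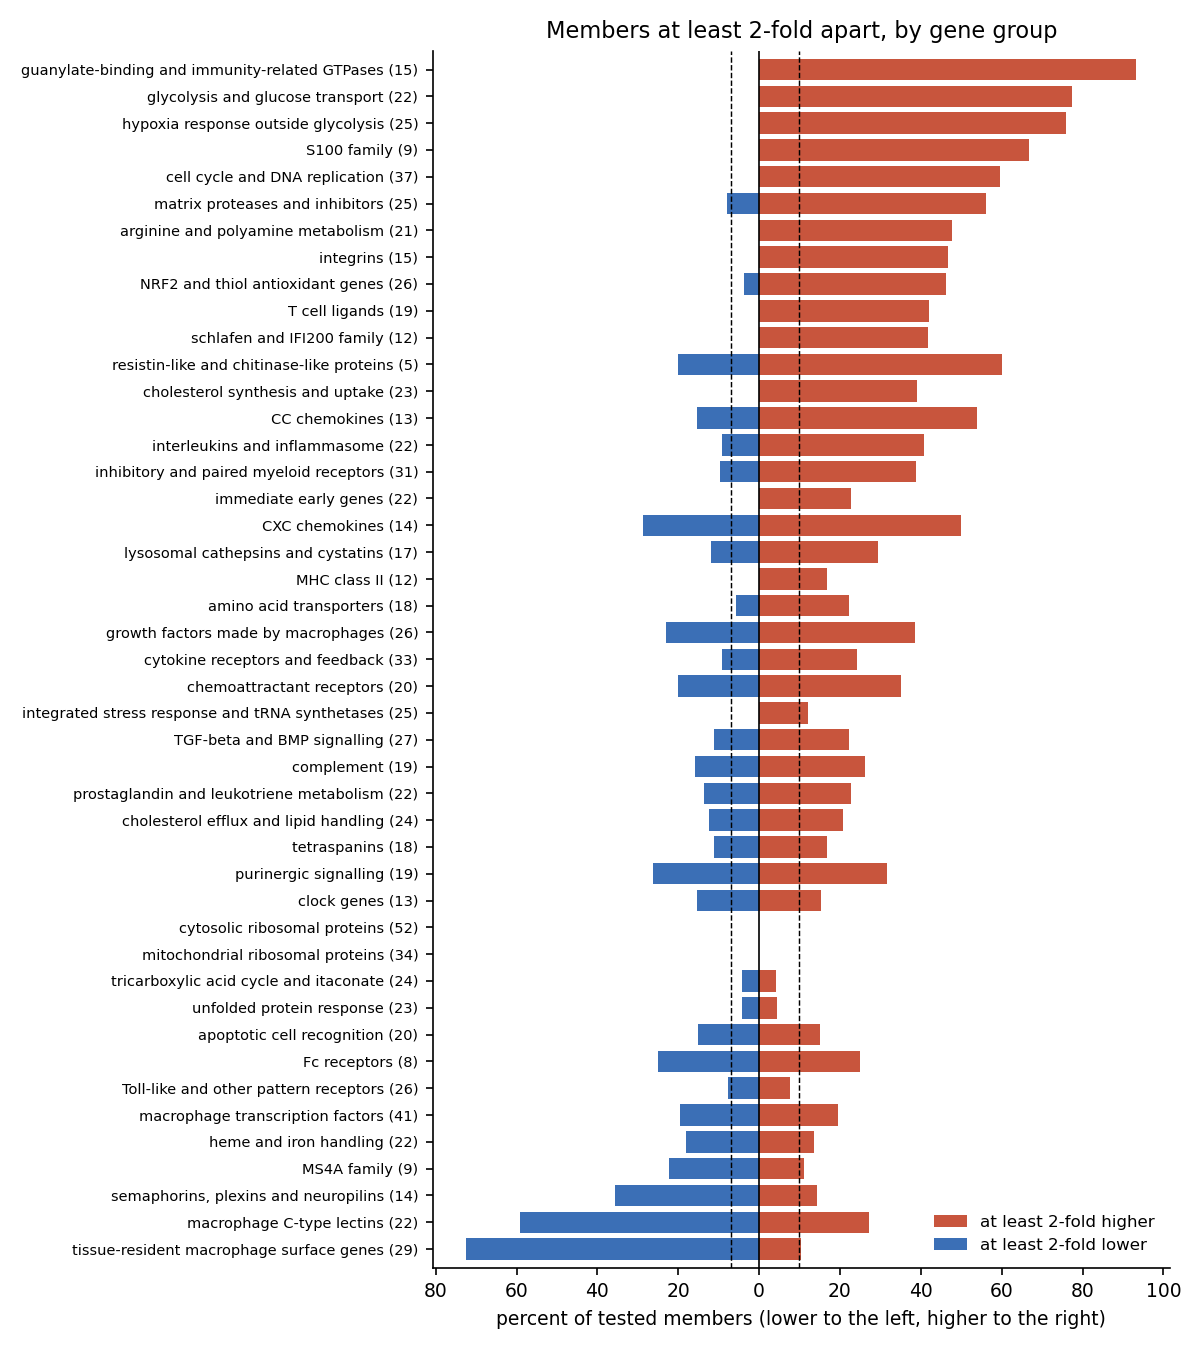
Share of the tested members of each of 45 gene groups that were at least 2-fold higher (right) or at least 2-fold lower (left) in control TAM with an adjusted p under 0.05, with the number tested beside each name. The dashed lines mark the share over all genes tested, 9.98% higher and 6.95% lower.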

How the data were processed

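Per the labels' protocols, RNA of sorted macrophages was amplified with SMART-Seq v4, and Nextera XT libraries followed. These do not keep the strand, so a gene and its antisense partner are read as one. A single table holds FPKM for 12535 genes, deposited by the authors with 1 column per library. STAR, edgeR, mm10 and GRCm38 appear, without roles, per the submitters' processing notes. How genes were measured, scaled and filtered is not given in the sources used here. Columns were matched to samples by title, and 0 sample columns were left unused. Of 316 genes without a symbol, 312 were named by identifier. Coordinates come from GENCODE M21 on GRCm38, 1-based.

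A model of log2(FPKM + 1) was fitted with limma 3.58.1 (R 4.3.3) to the 11127 genes in all 10 libraries, with 3 group means (7 residual degrees of freedom), a variance trend and Benjamini-Hochberg adjustment over all genes tested at 0.05, two-sided. Log2 changes are control TAM minus resident and understate the change of low genes. Depth was recovered by matching low FPKM values to whole reads, which held within 0.05 for 85.9% to 86.9% of the values used in the 7 libraries. Over the 12 same-group pairs of libraries, the median squared difference was 1.69 to 2.52 times counting noise. This ratio takes the recovered reads as counted independently, so it cannot decide whether the libraries are technical replicates. The fit was tested on simulated data.

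The comparison, the gene groups and the rule for naming genes were chosen with earlier results of these data known. The rule takes the 12 largest rises and falls among called genes without overlap, of at least 10 FPKM in the higher group, with an ordinary gene symbol and on no list of a non-macrophage cell type, up to 3 rises and 3 falls and the most abundant and least changed member of each group, the 3 most abundant markers of each cell type, the 10 most abundant genes of each macrophage group, the genes of the sort, and Ahr. The text names a part of these. Chosen outside the rule, after their values were seen, were Adm, Arg2, Ass1, Bnip3, Cbr2, Ccr2, Clec10a, Clec7a, Cx3cr1, Ddx3y, Ero1l, F10, Fcna, Folr2, Fos, Garnl3, Hif1a, Hk2, Icam2, Id2, Iglc2, Il10, Irf7, Ldha, Ly6c2, Lyve1, Maf, Mzb1, Osm, Ptges and Spi1, and in the closing section Cp, F13a1, F3, F7, Fkbp5, Lrg1, Msln, Psmb8, Psmd5, Saa3, Slpi, Thbd and Tsc22d3. Group counts cover members that passed the filter, and a member can pass through 1 group alone. Promoter windows are RefSeq's on GRCm38.p6, and 8783 of the 11127 genes had one. The alternatives are given in the closing section.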

Additional observations from a re-analysis of the deposited data

Results flagged for a closer look

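In the 4 resident libraries, 11 of the 216 named genes had 1 library apart from the other 3, by a gap test that flags about 1 in 20 groups by chance. The count was near that rate. The test sets the gap against the range of the 4 values, so it also flags gaps that are small beside the level. Klf4 was at 8.49 FPKM in resident replicate 3, where the others lay between 9.26 and 9.29. Herpud1 was at 249 FPKM in the same library (others 262.7 to 263.5), Ctsk at 0.547 (0.660 to 0.671) and S1pr1 at 59.1 (54.0 to 54.7). Spi1 was at 277 FPKM in resident replicate 1 (252 to 254) and Tcf4 at 21.5 (19.8 to 20). Gsr was at 24.5 FPKM in resident replicate 2 (26.1 to 26.2) and Garnl3 at 2.12 (2.73 to 2.85). Ltbp1 was at 2.03 FPKM in resident replicate 4 (1.65 to 1.68). Tsc22d3 was at 662 FPKM in the same library (646 to 648). S100a9 was at 0.128 FPKM in resident replicate 4 and listed at 0 in the other 3 libraries. Each of these gaps was small beside the difference between the groups, other than for Klf4, which did not pass the test, and Spi1. The call of Spi1 held when each library was left out in turn.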

How the results depend on the processing

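Of the 216 named genes tested, 210 kept their direction and their side of the threshold under all 23 alternatives (pseudocounts, filters, scalings, other limma settings and leaving out each library), and none reversed. Adgre1 lost its call with libraries rescaled to a common total (-0.05) and with quantile normalization (-0.02), and Fcer1g with no variance trend (0.12). Klf4 (0.27), Cd80 (0.25), Csf3r (0.23) and Psmd5 (0.22) gained one when libraries were rescaled to a common total. The number of genes called was 6158 with an FPKM of at least 5 in 3 libraries and 9416 with no filter. Leaving out 1 library gave 8237 to 8559 calls, with 1104 to 1119 genes at least 2-fold higher and 773 to 789 lower. With a pseudocount of 0.1, 1477 genes were at least 2-fold higher and 1089 lower, and with libraries rescaled to a common total 1402 and 576. Of the 66 group medians, 61 kept their sign. The median of the cytokine receptors became -0.00738 without control TAM replicate 2 (leaving out 1 library gave -0.00738 to 0.0513), that of heme and iron genes 0.0208 with a common total, and that of MHC class II 0.13 with quantile normalization. That of purinergic genes became -0.45 with an FPKM of at least 5 in 3 libraries and -0.36 with the filter over the 7 libraries compared, and that of TGF-beta and BMP genes -0.10 with the first of these filters. Both filters leave fewer genes tested. With a replicate block, 8396 genes were called, 4260 higher and 4136 lower. Same-numbered resident and control TAM libraries did not deviate together (correlations of -0.06, -0.01 and 0.03), and differently numbered ones had correlations of -0.08 to 0.13. So few small correlations cannot decide whether the numbers pair the samples. Depth limits genes near 0 FPKM, for which folds are uncertain.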

Other observations

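Further gene groups were put together after the values had been seen, so their counts are descriptions only. Of 15 glucocorticoid-induced genes, 9 fell and 6 rose, and 8 (53.3%) were at least 2-fold lower. Tsc22d3, known as GILZ, a mediator of the anti-inflammatory action of glucocorticoids, was at 647, 648, 646 and 662 FPKM in the resident libraries and at 91.2, 90.9 and 97.8 in control TAM (log2 change -2.79 ± 0.03, adjusted p = 1.05e-19). Fkbp5, a chaperone of the glucocorticoid receptor, was at 47.8, 46.7, 46 and 46.8 FPKM in the resident libraries and at 5.52, 5.86 and 5.92 in control TAM (log2 change -2.82 ± 0.07, adjusted p = 1.54e-15). Both were several times lower in each control TAM library, while Dusp1, a phosphatase that glucocorticoids and stress signals both induce, was higher (578 to 728 FPKM).

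Of 14 tested coagulation and fibrinolysis genes, 10 rose and 4 fell. F7, coagulation factor VII, was at 5.29, 5.51, 6.36 and 4.94 FPKM in the resident libraries and at 92.1, 98 and 96.5 in control TAM (log2 change 3.89 ± 0.06, adjusted p = 5.42e-18). F3, tissue factor, which starts clotting with factor VII, was at 1.99, 1.38, 1.99 and 1.17 FPKM in the resident libraries and at 34.7, 34.7 and 32.6 in control TAM (log2 change 3.75 ± 0.09, adjusted p = 3.42e-15). F13a1, the subunit that crosslinks fibrin, was at 1208, 1271, 1311 and 1279 FPKM in the resident libraries and at 103, 96.3 and 102 in control TAM (log2 change -3.64 ± 0.03, adjusted p = 9.24e-21). The starters of clotting thus lay higher and the crosslinking subunit lower in control TAM. Thbd, thrombomodulin, a brake on clotting, fell from 23.8 ± 1.24 to 5.94 ± 0.442 FPKM.

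Of 12 tested acute-phase genes, 11 rose, all of them at least 2-fold, and 1 fell. Saa3, a serum amyloid A protein that macrophages make, was at 220.1, 207, 203 and 210.2 FPKM in the resident libraries and at 2166, 2189.5 and 2203 in control TAM (log2 change 3.37 ± 0.03, adjusted p = 6.33e-21). Lrg1, a leucine-rich glycoprotein, was at 68.9, 63.9, 63.2 and 56.5 FPKM in the resident libraries and at 635, 647 and 602 in control TAM (log2 change 3.30 ± 0.05, adjusted p = 1.04e-17). Slpi, an inhibitor of leukocyte proteases, was at 146, 125, 129 and 138 FPKM in the resident libraries and at 1045, 1055 and 1059 in control TAM (log2 change 2.96 ± 0.04, adjusted p = 4.94e-18). No resident library came near any control TAM library for these. Cp, ceruloplasmin, a copper carrier that oxidises iron, was the one that fell, from 40.03 ± 3.56 to 20.4 ± 0.924 FPKM.

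Of 37 proteasome subunit genes, 36 rose and 1 did not pass, 6 of them by at least 2-fold. Psmb8, an interferon-induced subunit, rose from 160.4 ± 9.21 to 384 ± 6.12 FPKM, and Psmd5, an assembly factor, was the one that did not pass (15.5 to 15.8 FPKM). Of 252 tested genes with the stem Zfp in their symbol, by contrast, 13 rose, 166 fell and 73 did not pass. Of all genes tested, 39.0% rose and 38.1% fell. The median log2 change of the Zfp genes was small, at -0.36, and rescaling to a common total moved that of all genes by 0.18. Of the Zfp genes, 6 (2.4%) were at least 2-fold lower and 0 at least 2-fold higher, against 6.95% and 9.98% of all genes. Markers of mesothelium, the lining of the peritoneal cavity, rose in 7 of 8 tested cases. Msln, mesothelin, was at 0.475, 0.568, 0.43 and 0.472 FPKM in the resident libraries and at 23, 27 and 24.1 in control TAM (log2 change 4.11 ± 0.07, adjusted p = 1.28e-17), and it is also made by tumour cells of this kind. The part of such cells in the control TAM libraries was not tested.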
